A study of Homo sapiens with 4 samples.

Results

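Iron uptake, storage and export were followed through 10 named genes, TFRC, FTH1, FTL, SLC40A1, SLC11A2, IREB2, ACO1, NCOA4, STEAP3 and FBXL5, chosen by their symbols. Of these, 9 had a row among the 23622 genes of the deposited table, and SLC40A1 was not analysed here. RNA was sequenced from MV4-11, a human acute myeloid leukemia cell line of myelomonocytic type, in 2 control libraries and 2 libraries with knockdown of the transcription factor IRF1. The labels give the control a WT genotype and no treatment. The study describes lentiviral short hairpins in both groups, a negative control in sh-NC and one against IRF1 in sh-IRF1. Its methods give puromycin selection of the infected cells. The hairpin carried by each sh-IRF1 library and whether the replicates came from separate cultures were not given in the sources used here, so the spread between replicates may be technical.

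Cells take up iron mainly as transferrin bound to the transferrin receptor, reduce it and pass it out of the endosome, and keep what is not used in ferritin, a hollow protein shell built from heavy and light chains. Export runs through ferroportin, the product of SLC40A1. Cytosolic iron is sensed by the iron regulatory proteins, the products of ACO1 and IREB2. When iron is scarce they bind hairpins called iron-responsive elements, which holds back translation of transcripts with the element before the coding sequence, such as those of ferritin, and keeps the transferrin receptor transcript, with elements after its coding sequence, from being degraded.

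The elements are shown because they separate the members by how their transcripts can be controlled. Each sequence below runs 5′ to 3′ in the sense of the transcript and was read from the GENCODE 44 transcripts on GRCh38. The 6 loop bases, CAGTGN, are in capitals. A match needed 5 pairs around the loop, G-U pairs allowed, and a C just before them on the 5′ side. Whether that C is unpaired was not checked.
FTH1, before the coding sequence, chr11:61967574-61967602, minus strand: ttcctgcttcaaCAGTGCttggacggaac
FTL, before the coding sequence, chr19:48965335-48965363, plus strand: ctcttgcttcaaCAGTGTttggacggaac
SLC40A1, before the coding sequence, chr2:189580661-189580689, minus strand: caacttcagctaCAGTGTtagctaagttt
TFRC, after the coding sequence, chr3:196050979-196051007, minus strand: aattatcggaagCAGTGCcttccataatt
TFRC, after the coding sequence, chr3:196050575-196050603, minus strand: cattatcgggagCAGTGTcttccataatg
TFRC, after the coding sequence, chr3:196050510-196050538, minus strand: ctgtatcggagaCAGTGAtctccatatgt
TFRC, after the coding sequence, chr3:196050463-196050491, minus strand: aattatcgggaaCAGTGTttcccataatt

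The elements of FTH1 and FTL, the heavy and light chains of ferritin, differed at 3 of 29 bases. Those of TFRC differed from each other at 4 to 11 bases and from the 2 ferritin elements at 16 to 20. In the canonical transcripts the loops began at base 45 in FTH1, base 39 in FTL and base 110 in SLC40A1. In TFRC they began at bases 3301, 3705, 3770 and 3817. SLC11A2, a transporter of ferrous iron out of the endosome, had a match with 4 of the 5 pairs and the C, after its coding sequence at chr12:50988269-50988297 on the minus strand. It is shown for its place in iron transport and is not particular to SLC11A2, since the canonical transcripts of IREB2 and ACO1 each held 1 match of the same form after the coding sequence, at bases 5852 and 5672.
SLC11A2, 4 of 5 pairs: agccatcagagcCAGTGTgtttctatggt

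The strict form was not matched in the transcripts of IREB2, ACO1, NCOA4, STEAP3 or FBXL5. Of 19701 canonical coding transcripts, 258 (1.31%) held a strict match and 141 (0.716%) held one in an untranslated region. Forms with at least 4 pairs and no required C occurred in 33.1% of them, so such a looser match separates few transcripts from the rest. A match is a description of the letters and was not tested for function.

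**Figure D1:**
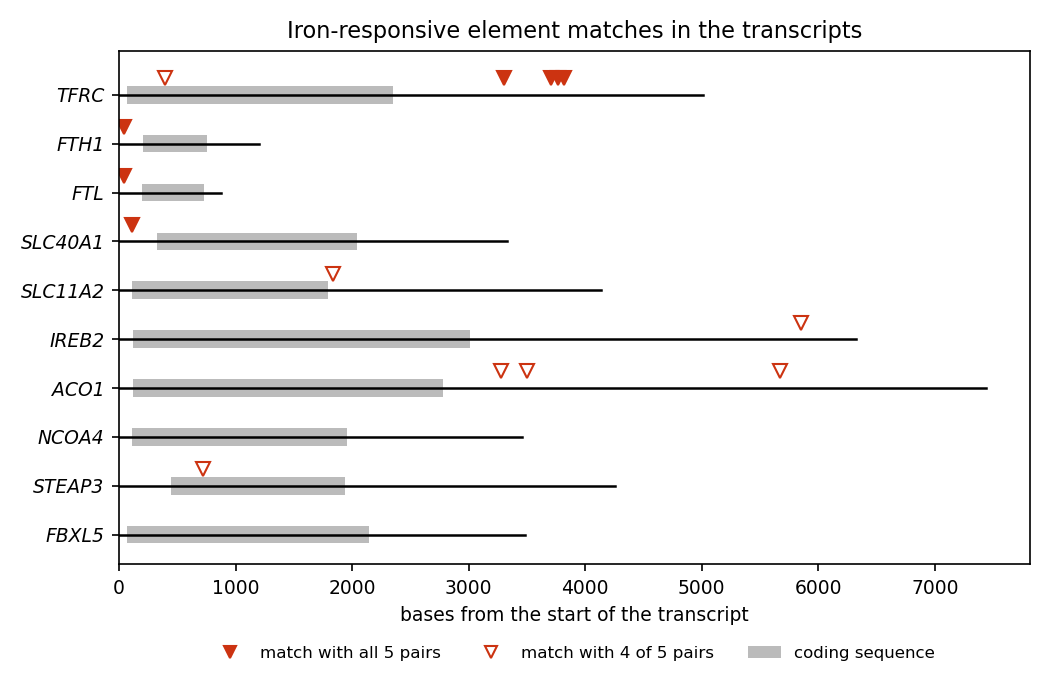
Positions of iron-responsive element matches (triangles, filled for 5 pairs and open for 4 of 5) along the canonical transcripts of the 10 iron genes, in bases from the transcript start, with the coding sequence as a grey box. The matches of FTH1, FTL and SLC40A1 lie before the coding sequence, and the 4 filled ones of TFRC lie after it. Open ones, which do not require the C, are in TFRC and STEAP3 within the coding sequence and in SLC11A2, IREB2 and ACO1 after it.

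The deposited value of a gene is its reads divided by 1 size factor per library, called here the normalized count. Library depth ran from 17635908 to 18695337 recovered reads. Fold changes are differences of the mean log2(normalized count + 1), sh-IRF1 minus sh-NC, from a limma fit over 14120 genes that reached 10 normalized counts in at least 2 libraries, and this scale understates changes of genes with few reads. IRF1, the targeted gene, had 785 and 738 normalized counts in sh-NC and 430 and 432 in sh-IRF1, so 56.6% of the control level remained (log2 fold change -0.82, SE 0.0904, adjusted p = 1.69e-10 from limma). Reads of the antisense gene IRF1-AS1, which shares exonic bases with IRF1, numbered 21 to 33 per library.

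Of the 9 marker genes of a myelomonocytic line, all 9 had a row and 8 were above 10 normalized counts in every library, CD68 being the exception, and their summed level was 42432 to 42733 in sh-NC and 39016 to 39314 in sh-IRF1. LYZ (log2 fold change 0.85) and SPI1 (0.17) rose, FLT3 (-0.46) and PTPRC (-0.48) fell, and the other 5 did not pass the limma test. Of the 10 erythroid markers only KLF1 and EPOR were analysed here, with sums of 402 to 448 in sh-NC and 463 to 467 in sh-IRF1, carried by EPOR. KLF1 fell, from 27.7 and 28.8 normalized counts in sh-NC to 11.9 and 10.3 in sh-IRF1 (log2 fold change -1.27, SE 0.488, adjusted p = 0.0317 from limma). Of the 3 T cell markers 1 had a row, with at most 2.81 normalized counts. Of the B cell markers, CD79A had 50.3 and 43.1 normalized counts in sh-NC and 190 and 250.2 in sh-IRF1, and the part of these markers in the results on iron genes was not tested.

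The members were proposed with results of this same contrast in view, so their differences are given as a description. The limma threshold is applied to them only to set their number beside that of all genes, and it is not evidence on the members. TFRC, FTH1, FTL and SLC11A2 had the higher values in sh-IRF1 and met an adjusted p under 0.05. The other 5 measured members met it in neither direction. Over all 14120 genes tested, 42.2% met it, 20.3% as higher and 21.9% as lower. With a log2 fold change beyond 0.5 as well, TFRC, FTH1 and FTL met the call, beside 15.8% of all genes, 8.27% as higher and 7.56% as lower. The 2 groups did not overlap for these 4 genes and ACO1, with the higher values in sh-IRF1, nor for IREB2 and STEAP3, with the lower ones. Over all genes tested the groups did not overlap for 69.2%, 34.2% with higher and 35.0% with lower values in sh-IRF1. The median log2 fold change of the 9 members was 0.04, and that of all genes tested was -0.0019.

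**Figure D2:**
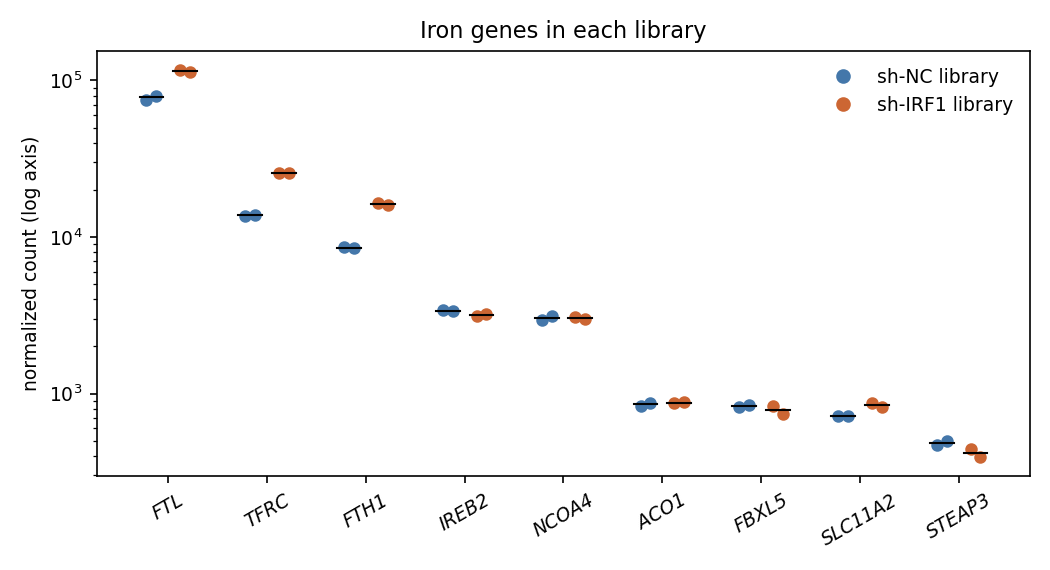
Normalized counts (log axis) of the 9 measured iron genes in each library (points; blue sh-NC, orange sh-IRF1), with the mean of the 2 libraries of a group as a line. Both sh-IRF1 libraries lie well above both sh-NC libraries for FTL, TFRC and FTH1, while the other genes differ little on this axis.

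TFRC (ENSG00000072274; GRCh38 chr3:196012511-196082153, minus strand) encodes the transferrin receptor, the cell's main door for iron. It had 13685 and 13830 normalized counts in sh-NC and 25818 and 25551 in sh-IRF1. The replicates of each group were close and the groups were far apart. The controls averaged 13758 ± 103 (SD, n = 2) and the knockdowns 25684 ± 188 (SD, n = 2), 187% of the control. The log2 fold change was 0.90 (SE 0.0253, 95% interval 0.85 to 0.95), and 95.2% of all genes tested had a lower one. TFRC took 0.0756% and 0.0763% of all reads in the sh-NC libraries and 0.147% and 0.146% in the sh-IRF1 libraries, at rank 118 in both controls and rank 39 in both knockdowns. Of its exonic bases 1.10% are shared with a long non-coding gene on the other strand.

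The endosomal partners of the receptor differed less between the groups. SLC11A2 (chr12:50979401-51028566, minus strand), whose product carries ferrous iron across the endosomal membrane, had 721 and 719 normalized counts in sh-NC and 870 and 825 in sh-IRF1. The knockdowns lay above the controls. The log2 fold change was 0.23 (SE 0.0777, 95% interval 0.08 to 0.39), with an interval wholly below that of TFRC. Without the sh-IRF1 replicate 1 it was 0.20 and no longer met the adjusted threshold. STEAP3 (chr2:119223831-119265652, plus strand), a reductase that converts ferric to ferrous iron in the endosome, had 467 and 495 normalized counts in sh-NC and 446 and 394 in sh-IRF1. Its groups lay next to each other without overlap, and the interval of its log2 fold change ran from -0.40 to 0.01 around -0.20. STEAP3 shares 11.0% of its exonic bases with STEAP3-AS1 on the other strand, which had 1 to 5 reads per library.

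FTH1 (ENSG00000167996; chr11:61959718-61967634, minus strand) encodes the ferritin heavy chain, which oxidizes iron as it enters the shell. Its normalized counts were 8637 and 8473 in sh-NC and 16400 and 16121 in sh-IRF1. Both knockdown libraries lay far above both controls. The controls averaged 8555 ± 116 (SD, n = 2) and the knockdowns 16260 ± 197 (SD, n = 2), 190% of the control. The log2 fold change was 0.93 (SE 0.0287, 95% interval 0.87 to 0.98), an interval that overlaps that of TFRC.

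FTL (ENSG00000087086; chr19:48965309-48966879, plus strand) encodes the ferritin light chain, which helps to build the iron core. It had 75554 and 80146 normalized counts in sh-NC and 116503 and 112561 in sh-IRF1. The groups did not overlap, and the controls spread more than those of FTH1. The controls averaged 77850 ± 3247 (SD, n = 2) and the knockdowns 114532 ± 2787 (SD, n = 2), 147% of the control. The log2 fold change was 0.56 (SE 0.0216, 95% interval 0.51 to 0.60), below the intervals of both FTH1 and TFRC. FTL was among the most read genes of the cell, with 0.418% and 0.442% of all reads in sh-NC at ranks 8 and 10, and 0.662% and 0.643% in sh-IRF1 at rank 5 in both libraries. The 9 members together took 0.592% and 0.617% of reads in sh-NC and 0.954% and 0.932% in sh-IRF1.

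**Figure D3:**
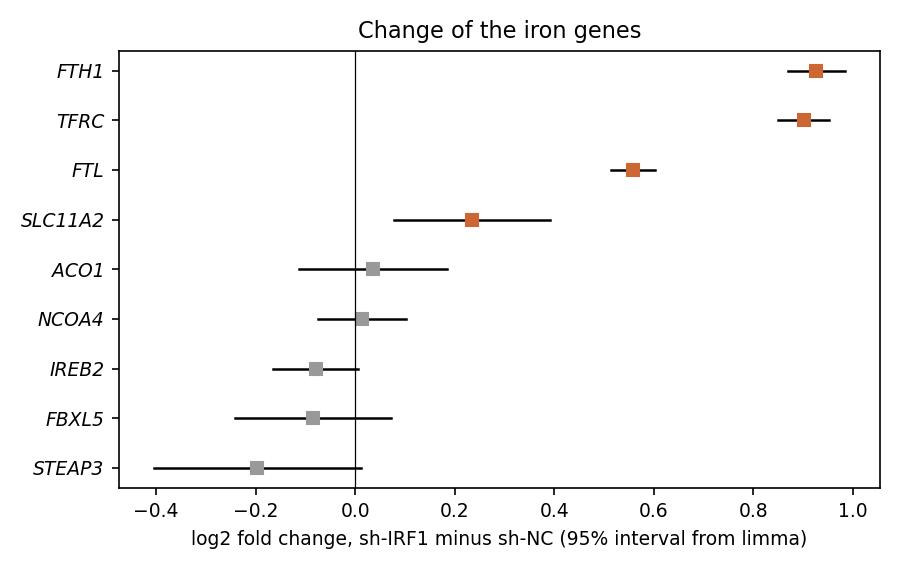
Log2 fold change of each iron gene, sh-IRF1 minus sh-NC, with its 95% interval from limma (squares and lines; orange for the 4 genes with an adjusted p under 0.05, grey for the others). FTH1 at 0.93 and TFRC at 0.90 stand together, FTL follows at 0.56 and SLC11A2 at 0.23, and the intervals of the other 5 include 0.

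Since FTH1 and TFRC differed between the groups by nearly the same factor, their ratio within a library hardly moved. There were 1.58 and 1.63 TFRC reads for each FTH1 read in the sh-NC libraries and 1.57 and 1.59 in the sh-IRF1 libraries. The groups overlapped. The 2 ferritin chains did not keep their ratio, with 8.75 and 9.46 FTL reads for each FTH1 read in sh-NC and 7.10 and 6.98 in sh-IRF1. These ratios are within a library and so do not depend on the size factors.

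**Figure D4:**
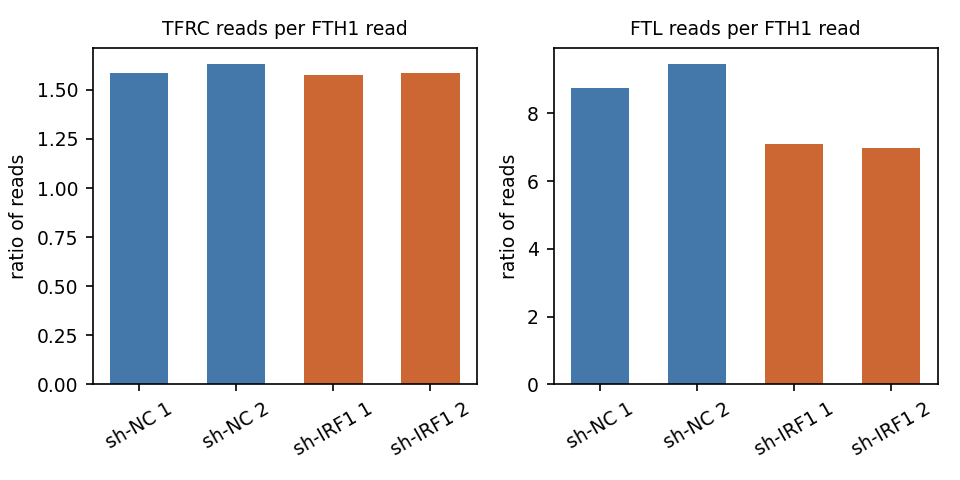
Reads of TFRC (left) and of FTL (right) for each read of FTH1, 1 bar per library (blue sh-NC, orange sh-IRF1), with each axis starting at 0. The left bars lie between 1.57 and 1.63 in all 4 libraries, and the right bars stand at 8.75 and 9.46 in sh-NC and at 7.10 and 6.98 in sh-IRF1.

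The reads of FTH1 can be confused with those of other loci. Of its exonic bases 63.2% are shared with BEST1, which lies on the opposite strand. BEST1 itself had 92 and 77 reads in sh-NC and 96 and 113 in sh-IRF1, against 8249 to 17205 for FTH1. Whether the counting used strand was not given in the sources used here. GENCODE names 25 FTH1 pseudogenes, and 11 of them had a row in the table. Of the canonical FTH1 transcript, 41.3% of windows of 50 bases and 20.7% of windows of 100 bases occurred unchanged in the transcript of another gene, and for the longer windows the 8 genes concerned were all FTH1 pseudogenes.

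The pseudogene rows held few reads. Together they came to 1.03% to 1.58% of the FTH1 reads of a library. The most read were FTH1P2, with 47.2 and 33.9 normalized counts in sh-NC and 52.7 and 57.2 in sh-IRF1, FTH1P7, with 33.9 and 42.1 against 44.8 and 46.8, and FTH1P8, with 9.23 and 24.7 against 32.8 and 22.5. FTH1P8 overlapped between the groups, and the other two did not. With all pseudogene reads added, the log2 fold change of FTH1 was 0.92. How reads that fit several loci were counted was not given in the sources used here. Reads left out for that reason would not appear in these rows.

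FTL has 16 named pseudogenes, of which 3 had a row, at 0.0243% to 0.0393% of the FTL reads. FTLP3 had 20.5 and 16.4 normalized counts in sh-NC and 45.8 and 40.3 in sh-IRF1. FTLP1 and FTLP12 had at most 3 reads in any library. Windows shared with other transcripts made up 18.5% of FTL at 50 bases and 3.37% at 100 bases. Adding the pseudogene reads left the log2 fold change of FTL at 0.56, with the same limit on reads that fit several loci.

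The genes that sense iron or open ferritin differed little between the groups. IREB2 (chr15:78437431-78501453, plus strand) encodes the iron regulatory protein that is destroyed when iron is plentiful. It had 3402 and 3347 normalized counts in sh-NC and 3146 and 3242 in sh-IRF1, 94.7% of the control in the mean. Its log2 fold change of -0.08 had an interval from -0.16 to 0.01. ACO1 (chr9:32384603-32454769, plus strand) encodes the other regulatory protein, which is a cytosolic aconitase when it carries an iron-sulfur cluster. It had 836 and 868 normalized counts in sh-NC and 869 and 878 in sh-IRF1, with an interval from -0.11 to 0.19. There were 4.07 and 3.86 IREB2 reads for each ACO1 read in sh-NC and 3.62 and 3.69 in sh-IRF1.

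FBXL5 (chr4:15604381-15681679, minus strand) encodes the iron-sensing subunit of the ubiquitin ligase that marks IREB2 protein for destruction. Its normalized counts of 820 and 843 in sh-NC and 828 and 742 in sh-IRF1 overlapped. The interval of its log2 fold change ran from -0.24 to 0.07. NCOA4 (chr10:46005088-46030623, minus strand) encodes the receptor that carries ferritin to the lysosome for breakdown. It had 2948 and 3112 normalized counts in sh-NC and 3100 and 3015 in sh-IRF1, which overlapped. Its log2 fold change of 0.01 (interval -0.08 to 0.10) turned to -0.03 without the sh-NC replicate 1 and to -0.0066 without the sh-IRF1 replicate 1, so its direction is not determined. The intervals of IREB2, ACO1, FBXL5 and NCOA4 together spanned -0.24 to 0.19.

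Levels of different genes were compared as RPKM, reads scaled to the exonic length of the gene and to the depth of the library. In sh-NC the level of FTL was 4935 ± 198 (SD, n = 2), that of FTH1 236 ± 3.57 and that of TFRC 43.7 ± 0.259. The level of NCOA4 followed at 42.0 ± 1.54, just below TFRC and without overlap. IREB2 stood at 17.2 ± 0.222, FBXL5 at 9.77 ± 0.181, ACO1 at 6.23 ± 0.155, STEAP3 at 5.82 ± 0.234 and SLC11A2 at 4.02 ± 0.0147. No neighbours in this order overlapped in sh-NC.

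In sh-IRF1 the order of levels was the same. FTL reached 7488 ± 156, FTH1 462 ± 3.99 and TFRC 84.2 ± 0.322 (SD, n = 2 each), and the levels of STEAP3 and SLC11A2 overlapped. The levels, and the order of the last genes, depend on the length used. With the canonical transcript, 5012 bases in place of 17376 exonic bases for TFRC, the level of TFRC in sh-NC was 152 ± 0.897 and that of NCOA4 48.3 ± 1.78. FTH1, with 1203 bases in place of 2004, then stood at 393 ± 5.94 in sh-NC and 770 ± 6.64 in sh-IRF1. The level of FTL in sh-NC was 12.6 times that of FTH1, in place of 20.9 times with exonic lengths. SLC11A2 stood before ACO1 and STEAP3 with this length, and ACO1 and STEAP3 overlapped in sh-NC.

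Around these members, 96 other genes of iron handling were listed by role, of which 71 passed the filter on low values. Of these, 21 rose and 12 fell with an adjusted p under 0.05 from limma, 29.6% and 16.9% of those tested, beside the 20.3% and 21.9% of all genes. Beyond a log2 fold change of 0.5, 7 (9.86%) rose and 5 (7.04%) fell, beside 8.27% and 7.56% of all genes. The median over the 71 was 0.05. The counts by role below rest on few genes each and are read beside the same shares of all genes.

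**Figure D5:**
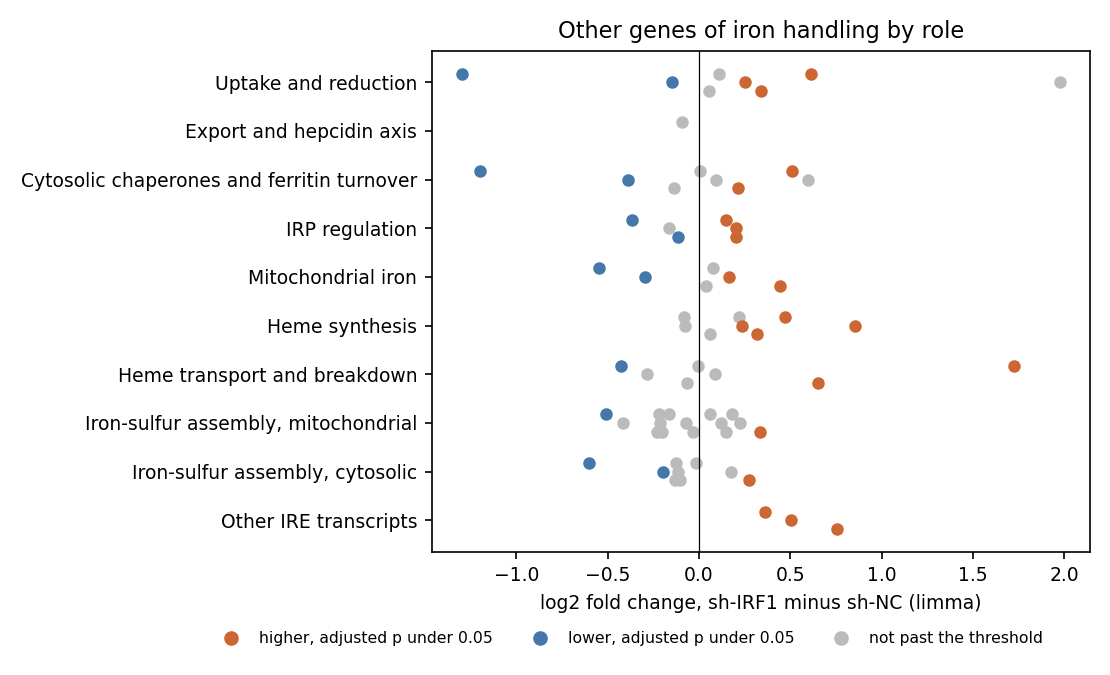
Log2 fold change (sh-IRF1 minus sh-NC, limma) of the 71 tested genes of iron handling outside the named members, by role, 1 point per gene (orange rose and blue fell with an adjusted p under 0.05, grey not past it). Heme synthesis holds 4 genes that rose of 8 tested, and iron-sulfur assembly in mitochondria has 13 of 15 genes not past the threshold. Over all genes tested, 42.2% passed it, 20.3% as higher and 21.9% as lower. The grey point near 2 is CUBN, with few reads.

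Among the 8 tested genes of uptake and reduction, CYBRD1, MCOLN1 and TFR2 rose, and LRP1 and SLC39A14 fell. CYBRD1, a membrane reductase of ferric iron, had 697 and 575 normalized counts in sh-NC and 993 and 947 in sh-IRF1 (log2 fold change 0.61, adjusted p = 2.59e-08). LRP1, a large endocytic receptor that takes up heme bound to hemopexin, had 633 and 610 in sh-NC and 257 and 247 in sh-IRF1. Its log2 fold change of -1.30 (SE 0.108, adjusted p = 3.73e-14) was the most negative of the 71. TFR2, the second transferrin receptor, had a log2 fold change of 0.25 (adjusted p = 0.0381), against 0.90 for TFRC. In the export group, HEPH alone was tested and did not pass.

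Of 8 tested genes of chaperones and ferritin turnover, CD63 and HERC2 rose, PCBP2 and PCBP4 fell, and 4 did not pass. CD63, a membrane protein of the vesicles in which ferritin can be secreted, had a log2 fold change of 0.51 (adjusted p = 2.22e-13). PCBP2, an iron chaperone of ferritin, fell by 0.39 on the log2 scale (adjusted p = 2.16e-09), and other genes overlap 32.7% of its exonic bases. PCBP4, of the same family, had 305 and 280 normalized counts in sh-NC and 136 and 118 in sh-IRF1 (log2 fold change -1.20, adjusted p = 9.80e-09). PCBP1, of whose exonic bases 73.2% are shared with PCBP1-AS1, had 5527 and 5427 normalized counts in sh-NC and 5416 and 5583 in sh-IRF1, which overlapped. HERC2 has 4 named pseudogenes in the table, at up to 22.1% of its own reads.

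Of the 6 tested genes listed under regulation of the iron sensors and of iron genes, SKP1, NFE2L2 and BACH1 rose, and CUL1 and KEAP1 fell. SKP1 and CUL1, partners of FBXL5 in its ubiquitin ligase, went in opposite directions, with log2 fold changes of 0.20 (adjusted p = 0.00164) and -0.37 (adjusted p = 2.07e-06). NFE2L2, a factor that activates ferritin and heme oxygenase genes, and BACH1, which represses them, had log2 fold changes of 0.15 and 0.20. Of the exonic bases of NFE2L2 38.4% are shared with other genes. Among 6 genes of mitochondrial iron, ABCB8 and SLC25A37 rose, and ABCB10 and SFXN1 fell. ABCB8 and ABCB10 are transporters of the inner membrane, at log2 fold changes of 0.44 (adjusted p = 9.33e-09) and -0.55 (adjusted p = 6.99e-16).

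Of 8 tested enzymes of heme synthesis, CPOX, ALAS1, UROD and ALAD rose and the other 4 did not pass, with a median log2 fold change of 0.23. CPOX, which oxidizes coproporphyrinogen, had 965 and 846 normalized counts in sh-NC and 1662 and 1609 in sh-IRF1. Its log2 fold change was 0.85 (SE 0.0663, adjusted p = 4.19e-15). ALAS1, the first enzyme of the pathway outside erythroid cells, stood at 0.47 (adjusted p = 4.74e-10). FECH, which inserts iron into the ring, had 878 and 873 normalized counts in sh-NC and 908 and 920 in sh-IRF1. It did not pass the test, with a log2 fold change of 0.06.

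HMOX1, the inducible oxygenase that opens heme and frees its iron, had 80.0 and 51.4 normalized counts in sh-NC and 217 and 211 in sh-IRF1. The controls differed from each other by more than the knockdowns did. Its log2 fold change of 1.72 (SE 0.205, adjusted p = 1.28e-09) was the highest of the 33 genes called. HMOX2, the constitutive form, had 727 and 694 in sh-NC and 729 and 632 in sh-IRF1, which overlapped. SLC48A1, a heme transporter of the lysosome, also rose (0.65, adjusted p = 1.17e-06), and BLVRB, a biliverdin reductase, fell by 0.43 on the log2 scale (adjusted p = 1.67e-05). HMOX1, SLC48A1 and BLVRB were the 3 called of 7 tested genes of heme transport and breakdown, beside the 42.2% of all genes called.

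Genes of iron-sulfur cluster assembly are read beside the 42.2% of all genes called. In mitochondria, 13 of 15 tested genes did not pass, and HSPA9 fell (-0.51, adjusted p = 1.42e-19). HSPA9 is the mitochondrial HSP70 chaperone and serves protein import as well as cluster transfer. In the cytosol, NDOR1 rose (0.27, adjusted p = 8.87e-04), MMS19 and CIAPIN1 fell, and 6 of 9 did not pass. MMS19, which delivers clusters to DNA repair enzymes, had 1477 and 1480 normalized counts in sh-NC and 972 and 976 in sh-IRF1 (log2 fold change -0.60, adjusted p = 4.80e-11). Part of NDOR1's exonic sequence is also annotated to another gene.

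Among other transcripts reported to hold an iron-responsive element, EPAS1 and CDC14A rose. The search used here found neither the strict nor the looser form in the EPAS1 transcripts. EPAS1, a hypoxia factor, had 48.2 and 32.9 normalized counts in sh-NC and 75.6 and 60.9 in sh-IRF1 (log2 fold change 0.75, adjusted p = 0.0348). CDC14A, a phosphatase, had 362 and 317 in sh-NC and 439 and 433 in sh-IRF1 (0.36, adjusted p = 0.00691). The strict match of CDC14A, found in 1 transcript, is shown for comparison with those of the ferritins and TFRC.
CDC14A, after the coding sequence, chr1:100518583-100518611, plus strand: tatttacatgtaCAGTGTtacattatata

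This element differed from that of FTH1 at 17 of 29 bases and from that of FTL at 16. Genes outside the 10 members whose canonical transcript held a strict match in an untranslated region numbered 137, a set made after results had been seen. Of the 101 tested, 27 (26.7%) were called higher and 28 (27.7%) lower, and their median log2 fold change was -0.02. The share called over all genes, 20.3% higher and 21.9% lower, stands beside these.

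Promoters of the members were read from RefSeq on GRCh38.p14, 250 bases before to 50 bases after each start, and 9 of the 10 members matched, all but FTH1, with 14 promoters in all. The core of the interferon-stimulated response element, which IRF family factors bind, is GAAA on either side of any 2 bases. It was found on either strand in 1 of the 14, a promoter of SLC11A2, and in 3.57% of 35116 promoters. SLC11A2 had 4 of the 14 promoters. The match lay on the strand opposite to the gene and was not wholly upstream of the start. The E-box CACGTG was found in 1 promoter, of FBXL5, and in 7.26% of all. The antioxidant response element core, TGACNNNGC, was found in 2, of FBXL5 and NCOA4, and in 13.3% of all. In FBXL5 the E-box and the antioxidant core overlapped.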

How the data were processed

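Total RNA of MV4-11 cells was extracted with Trizol and made into Illumina TruSeq libraries. The submitters' processing notes name HISAT2 2.0.5 and hg38. The counting tool, annotation and use of strand were not given in the sources used here. What the authors deposited is a normalized signal, reads per gene after division by a size factor that is constant within a library. All 4 columns were used, with 0 others. Values were whole multiples of 1 read (100% within 0.01 of a read), so reads were recovered. In 1 sh-IRF1 library a read is worth so nearly 1 that the step rests on the values alone.

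limma 3.58.1 in R 4.3.3 (variance trend, robust) was fitted to log2(value + 1) over 14120 of 23622 genes, those with at least 10 in at least 2 libraries, with Benjamini-Hochberg adjustment over all genes tested. For groups of 2 and 2 the smallest p of an exact two-sided permutation test is 0.333, so calls rest on limma's shared spread. The edgeR 4.0.16 quasi-likelihood test on the recovered reads, an alternative, called 2910 genes higher and 3038 lower, and DESeq2 1.42.0 called 2312 and 2605. Replicates differed beyond sampling noise (chi-square per gene 2.93 in sh-NC, 2.47 in sh-IRF1). No spike-in was reported, and fewer cells and less RNA per cell cannot be told apart. The scripts were tested on simulated data.

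Symbols matched 23456 identifiers. Positions, lengths and overlaps came from GENCODE 44 on GRCh38. The members and the gene lists were chosen with earlier results of these data known. Named genes were all members, IRF1, up to 3 pseudogenes each of FTH1 and FTL with most reads, and in each role of the wider list the called gene of smallest p for each direction and every called gene with a log2 fold change beyond 1. Other genes named to complete a count or beside a called gene were chosen after their values were seen. Alternatives covered scaling, filter, pseudocount, test, replicate block, leaving out each library, the fold threshold, pseudogene reads, gene length and the element's pairing. Some named genes are not reported here.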

Additional observations from a re-analysis of the deposited data

How the results depend on the processing

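All counts of called genes stayed within 1.5 times the reported ones under every setting run. Across settings the log2 fold change ran from 0.89 to 0.95 for TFRC, 0.91 to 0.97 for FTH1, 0.51 to 0.60 for FTL and 0.20 to 0.28 for SLC11A2. SLC11A2 lost its call only without the sh-IRF1 replicate 1 (0.20), and NCOA4 was reversed without the sh-NC replicate 1 (-0.026) and without the sh-IRF1 replicate 1 (-0.0066), within a range of -0.026 to 0.052 over libraries left out; the cause was not tested. The values of STEAP3 (-0.28 to -0.11), IREB2 (-0.10 to -0.03), FBXL5 (-0.16 to -0.0065) and ACO1 (0.0095 to 0.08) met the threshold in no setting. Leaving out 1 library each, 2037 to 2685 genes were called higher and 2405 to 2744 lower, and the remaining single library was assumed to vary like the others. Nothing pairs the samples by number, and deviations of same-numbered libraries correlated at r = -0.015 across 14120 genes. With a replicate block, 2903 genes were higher and 3147 lower, and the calls of the members and of the wider genes named by rule were unchanged. Total-count scaling moved the median of all genes to 0.04, with 3428 higher and 2647 lower. With the canonical transcript length SLC11A2, ACO1 and STEAP3 took places 7, 8 and 9 by level. Under looser pairing of the element, FTH1, SLC11A2 and IREB2 had 2 matches each, ACO1 3 and STEAP3 1. With n = 2 per group, the spread of a single gene is poorly known.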
